A study of Mus musculus with 77 samples.

Results

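Fstl3, Esyt3, Cidea, Nags, Gadd45b, Slc22a4, Lzts1 and Cpm are 8 of 19938 measured genes, selected on their values in whole testes of Ngn3-cre:RiboTag mice, where each had more RNA 4h after an injection of retinoic acid (RA) than at time 0. The question was which tagged cell type carries each of them. Averaged over all times, 7 of the 8 had a higher level in RNA bound to Sertoli cell ribosomes than in RNA bound to germ cell ribosomes, 5 of them past both thresholds given below, which 9.26% of all genes passed on that side and 7.54% on the germ cell side. Cpm was on the germ cell side, and at 4h it was the member called higher in the germ cell RNA of both lines that tag germ cells. The average did not hold at every time. Lzts1 was on the germ cell side at time 0 (1.2 log2 units) and in the arrays labelled 4h (0.83). In those labelled 4h, a label taken up below, Fstl3 was level, with means of 1368 germ cell and 1371 Sertoli cell units. By 8d Cpm was on the Sertoli side (-0.92).

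The arrays came from testes of mice with a RiboTag allele, whose ribosomal protein gains an epitope tag in cells that express a Cre recombinase. IP RNA is the RNA pulled down with the tagged ribosomes, and total RNA is that of the whole testis. The Ngn3-cre:RiboTag line (C57BL/6) tags germ cells and gave 4 IP and 4 total arrays, at 4h and time 0. The Stra8-cre:RiboTag line (FVB/N) also tags germ cells and gave 16 IP and 23 total arrays at time 0 and at 4h, 12h, 24h and 48h, then at 4d, 6d and 8d. The Amh-cre:RiboTag line (FVB/N) tags Sertoli cells and gave 16 IP and 14 total arrays over those times, with Amh total RNA at 4h not analysed here. All animals, those at time 0 included, had received BDAD, an inhibitor of RA synthesis, for 9 days, and the groups after time 0 then received RA. No animals without BDAD and none with BDAD and a vehicle injection were analysed here. RA, the time since the last BDAD dose and any age gained by the later times therefore cannot be told apart. The labels give no age beyond the word neonatal, and Ngn3 differs from the other lines in strain as well as in Cre driver. Values are RMA intensity units, and differences are on the log2 scale with the SE of one limma model over all 77 arrays. A gene is written of as called where the difference reached 2-fold and the p adjusted by Benjamini-Hochberg lay below 0.05. In whole testis RNA, fewer cells of a type and less RNA per cell cannot be told apart.

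RA enters the nucleus and binds RA receptors, which sit on DNA as partners of retinoid X receptors at repeats of a short half-site and turn on nearby genes. In the neonatal testis RA drives undifferentiated spermatogonia to differentiate, and Sertoli cells, the somatic nurse cells of the tubule, both make RA and respond to it. Blocking RA synthesis holds germ cells back as undifferentiated spermatogonia, and added RA then releases them together. The members belong to no common textbook pathway. Fstl3 is a secreted binder of activin, Cpm a carboxypeptidase on the cell surface, Slc22a4 a transporter of ergothioneine and Esyt3 a tether between endoplasmic reticulum and plasma membrane. Cidea coats lipid droplets, Nags makes the cofactor that switches on the urea cycle, Gadd45b activates a stress kinase cascade and Lzts1 is a leucine zipper protein named as a tumour suppressor.

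The starts of 3 members are shown because they hold AGGTCA, the half-site that RA receptors prefer, and because Cpm lies on the germ cell side below while Nags and Fstl3 lie on the Sertoli side. RefSeq promoter windows (GRCm38.p6) of 300 bases, 250 of them before the gene's start and 50 after it, were used for 6 members. Capitals mark matches on either strand to AGGTCA or to its variants. The variants searched were GGGTCA and also AGTTCA and, last, GGTTCA. Positions are counted from the gene's start. The Cpm window is chr10:117629250-117629549 on the + strand, the Nags window chr11:102145263-102145562 on the + strand and the Fstl3 window chr10:79777024-79777323 on the + strand.
Cpm: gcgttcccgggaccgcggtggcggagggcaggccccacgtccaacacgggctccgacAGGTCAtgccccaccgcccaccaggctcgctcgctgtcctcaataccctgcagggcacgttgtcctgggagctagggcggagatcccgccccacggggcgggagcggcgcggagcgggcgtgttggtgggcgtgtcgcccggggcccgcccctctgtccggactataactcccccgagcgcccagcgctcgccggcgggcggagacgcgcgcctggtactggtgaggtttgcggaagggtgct
Nags: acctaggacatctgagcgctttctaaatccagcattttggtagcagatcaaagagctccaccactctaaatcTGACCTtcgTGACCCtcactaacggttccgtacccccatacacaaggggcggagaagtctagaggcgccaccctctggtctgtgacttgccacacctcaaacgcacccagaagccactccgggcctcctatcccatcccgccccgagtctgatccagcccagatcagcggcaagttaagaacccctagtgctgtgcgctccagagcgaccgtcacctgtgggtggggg
Fstl3: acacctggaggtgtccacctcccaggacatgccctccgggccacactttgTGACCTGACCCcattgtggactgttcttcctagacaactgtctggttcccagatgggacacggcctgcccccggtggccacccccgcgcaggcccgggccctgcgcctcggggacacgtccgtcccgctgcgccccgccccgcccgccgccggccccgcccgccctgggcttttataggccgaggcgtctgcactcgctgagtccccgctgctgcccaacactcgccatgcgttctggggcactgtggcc
Cpm held a single AGGTCA, from -193 to -188. Nags held 2 matches on the opposite strand, read here as TGACCT from -178 to -173 and TGACCC from -169 to -164, which makes a direct repeat with 3 bases between the half-sites. Fstl3 held TGACCT from -200 to -195 and TGACCC from -195 to -190, which share a base. Esyt3 and Gadd45b each held a TGACCC, from -130 to -125 in Esyt3 and from -192 to -187 in Gadd45b, and Slc22a4 held no match. Among 32851 promoter windows of that length, 16.3% held AGGTCA on either strand and 43.7% held 1 or more of the 4 half-sites, which 5 of the 6 member windows did. Direct repeats spaced by 1, 2, 3 and 5 bases were searched. They were in 0.222%, 0.268%, 0.0396% and 0.0974% of all windows, in that order. Of the 6 member windows, only that of Nags held such a repeat, the one spaced by 3 bases. None held a repeat spaced by 1, 2 or 5 bases. Whether RA receptors bind the Nags repeat was not tested. These matches describe the letters in the windows only. No window of Cidea or Lzts1 was searched, so the counts over the 6 windows leave these members out. Those counts were not tested against the shares of all windows.

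Some arrays stood apart from what their labels say, and the labels were followed. Of the 3 Stra8 total arrays labelled 4h, replicate 1 correlated with the others at r = 0.958 and 0.959 across genes, the lowest of any pair of replicates (median 0.995), and it and 2 Stra8 total arrays labelled 24h had the narrowest spread of log2 values (SD 1.69 to 1.71). It had 368 units of Rarb, the RA receptor gene that RA itself induces, against 126 and 127 in replicates 2 and 3. Kit, a receptor of differentiating spermatogonia, read 678, 2528 and 2551 in replicates 1, 2 and 3, against 763 to 976 at time 0, and 1137 and 1119 in Ngn3 total RNA at 4h. The Amh arrays labelled 4d had Rarb at 382 and 378 in IP RNA and 470 and 451 in total RNA, and Ngn3 total RNA at 4h had 358 and 359. The Amh IP arrays labelled 4h had 145 and 143, and the Stra8 IP arrays labelled 4h had 623 and 594. Of 18 measured RA targets on a list, 5 were called higher in Ngn3 IP and 7 in Stra8 IP RNA at 4h, 0 in Stra8 total and 0 in Amh IP RNA labelled 4h, and 6 in Amh IP and 8 in Amh total RNA labelled 4d. At an unadjusted limma p under 0.05, 6 of the 18 passed in Stra8 total and 4 in Amh IP RNA labelled 4h.

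**Figure D1:**
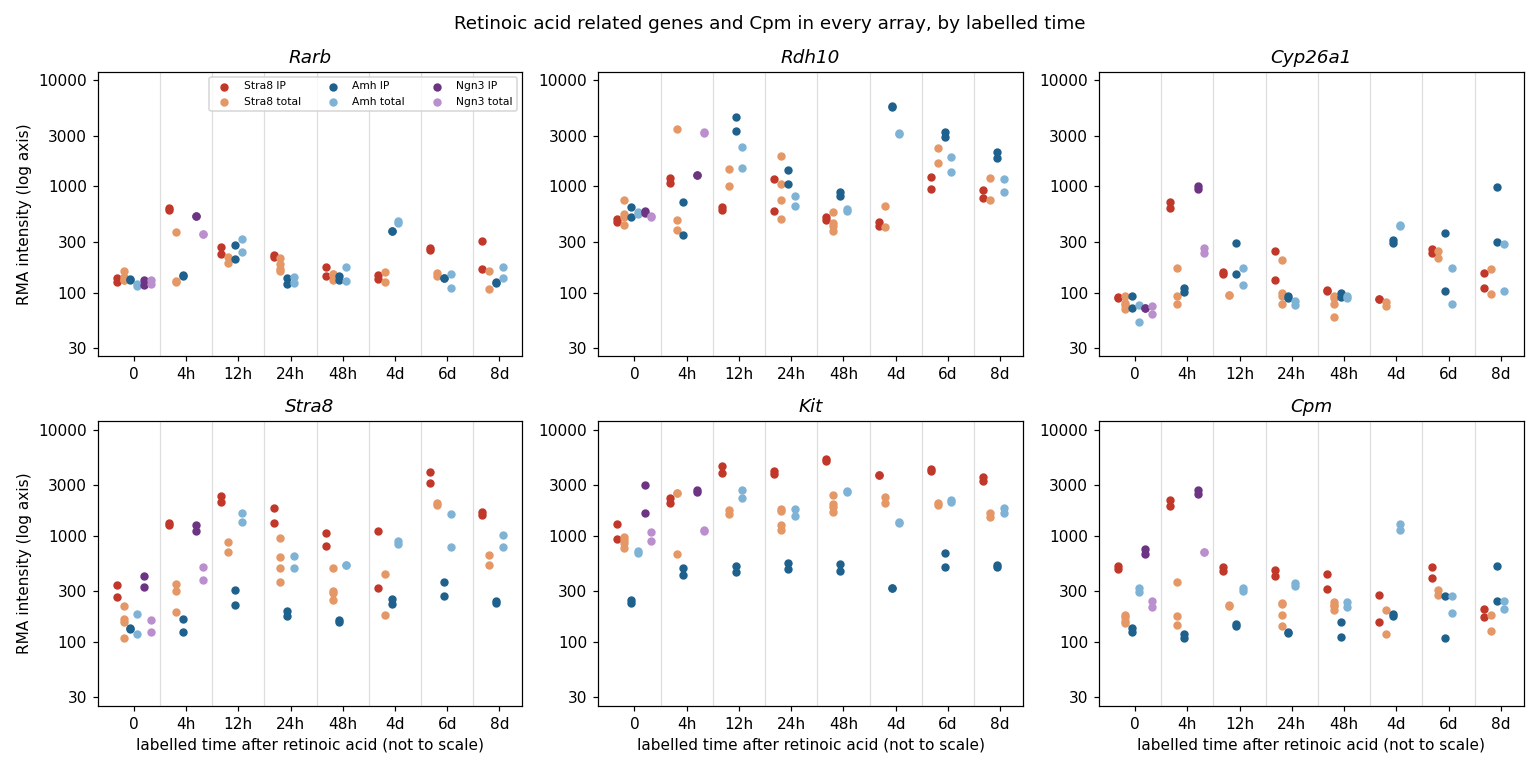
RMA intensity (log axis) of Rarb, Rdh10, Cyp26a1, Stra8, Kit and Cpm in every array by labelled time after RA, 1 point per array, coloured by line and fraction. Rarb is at 382 and 378 in the Amh IP arrays labelled 4d and at 145 and 143 in those labelled 4h, and Cpm is at 1299 and 1143 in the Amh total arrays labelled 4d.

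The tagged fractions were checked against markers. All 12 germ cell markers on a list were higher in Stra8 IP than in Amh IP RNA, and all 11 measured Sertoli cell markers were lower. Sertoli markers were not absent from germ cell IPs: their mean log2 intensity ranged from 8.91 to 11.12 in Stra8 IP and from 9.75 to 10.01 in Ngn3 IP arrays, against 12.51 to 12.69 in Amh IP arrays. The part of Sertoli RNA in the low germ cell levels of the members below was not tested.

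In Ngn3 total RNA, the contrast that chose the members, 0.251% of all genes were higher and 0.0502% lower, and the members stood between ranks 2 and 11 by size of the difference. Fstl3 read 5121 and 5417 units at 4h, against 795 and 1005 at time 0, a log2 difference of 2.56 ± 0.47. Esyt3 read 1361 and 1818 at 4h against 329 and 264 at time 0 (2.42 ± 0.37). Cidea read 2079 and 2020 against 426 and 539 (2.10 ± 0.35). Nags, Gadd45b, Slc22a4, Lzts1 and Cpm followed at 1.89, 1.72, 1.72, 1.70 and 1.63. Every member's 4h arrays lay above its arrays at time 0, which the choice of members makes likely, and these differences carry no test. At the edge of the choice, Stra8, the RA-induced gene that germ cells need to enter meiosis, lay just above Cpm at 1.65, and Garem1, an adaptor of growth factor signalling, just below it at 1.58. The largest risers outside the members were Rdh10, an enzyme of RA synthesis (2.62), Cyp26a1, which degrades RA (1.85), Stra8, Garem1 and Cfap161 (1.57).

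**Figure D2:**
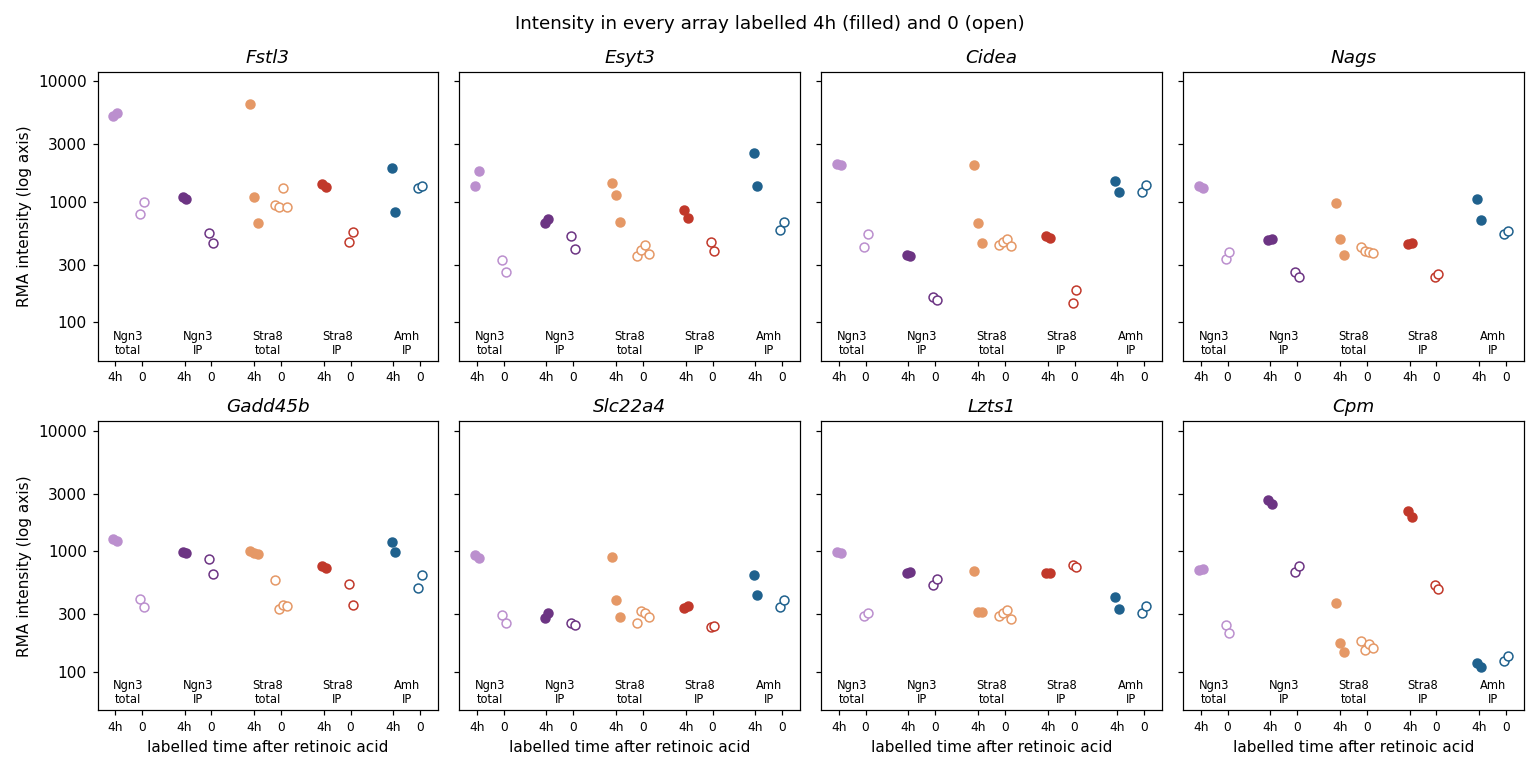
RMA intensity (log axis) of the 8 members in every array labelled 4h (filled) and 0 (open), in Ngn3 total, Ngn3 IP, Stra8 total, Stra8 IP and Amh IP RNA, 1 point per array. Cpm is at 2688 and 2486 in Ngn3 IP and 2170 and 1913 in Stra8 IP at 4h, and Fstl3 is at 6440, 1105 and 671 in the 3 Stra8 total arrays labelled 4h.

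In the germ cell RNA of the Ngn3 line, Cpm rose. It read 2688 and 2486 units in Ngn3 IP arrays at 4h, against 669 and 750 at time 0 (1.87 ± 0.30, adjusted p = 3.35e-05). It was the single member called there, where 0.281% of all genes were higher and 0.0301% lower. All 8 members had both 4h arrays above both arrays at time 0, a count that was not made over all genes. The member median difference was 0.78, against 0.017 for all genes. Nags passed the adjusted p but not the fold (0.98 ± 0.26, adjusted p = 0.0258). Cidea (1.19 ± 0.35, adjusted p = 0.0656) and Fstl3 (1.12 ± 0.47, adjusted p = 0.373) were past 2-fold without passing the adjusted p. Esyt3, Gadd45b, Slc22a4 and Lzts1 differed by 0.58, 0.38, 0.23 and 0.26. The labels do not say whether IP and total RNA came from the same testes. Differences between the replicates in Ngn3 IP correlated across genes with those in Ngn3 total RNA, at r = 0.249 at time 0 and 0.259 at 4h. Ngn3 IP values may thus not be independent of the choice of members.

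In the germ cell RNA of the Stra8 line, Cpm and Cidea rose. Cpm read 2170 and 1913 in Stra8 IP arrays labelled 4h, against 525 and 484 at time 0 (2.02 ± 0.30, adjusted p = 1.54e-05). Cidea read 518 and 501, against 144 and 185 (1.64 ± 0.35, adjusted p = 0.00395). They were the 2 members called, where 0.231% of all genes were higher and 0.0100% lower, and the member median was 0.89 against -0.041 for all genes. The groups did not overlap for either gene, but the Cidea call was lost in 3 of 4 fits that left out an array, those without either 4h replicate or without replicate 1 of time 0 (1.46 to 1.67). Gadd45b was called without replicate 1 of time 0 (1.04). For comparison, Cidea read 1197 and 1380 in Amh IP arrays at time 0. None of the 11 Sertoli markers was called by limma in Stra8 IP at 4h (3 at an unadjusted p under 0.05), and their median difference was -0.13. Sertoli RNA in the IP could hold more Cidea with the markers unchanged, so the markers cannot show in which cells Cidea rose. The part of Sertoli RNA in the Cidea rise was not tested. Fstl3 read 1405 and 1331 at 4h against 468 and 558 at time 0, without passing the test (1.42 ± 0.47, adjusted p = 0.136). Lzts1 had its 4h arrays below those of time 0, with 667 and 663 against 768 and 745, and did not pass the test (-0.19 ± 0.29, adjusted p = 0.859).

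In Stra8 total RNA labelled 4h, Gadd45b and Esyt3 rose, and other members turned on a single array. Gadd45b read 999, 978 and 947 units at 4h against 330 to 578 at time 0 (1.30 ± 0.16, adjusted p = 2.84e-07). Esyt3 read 1427, 1135 and 680 against 354 to 443 (1.40 ± 0.28, adjusted p = 0.000383). They were the 2 members called, where 0.206% of all genes were higher and 0.181% lower, and both were called without replicate 1 as well (Gadd45b 1.28, Esyt3 1.17). Calls without replicate 1 rest on replicates 2 and 3, whose low Rarb and high Kit are given above. Fstl3 read 6440, 1105 and 671 in replicates 1, 2 and 3, against 902 to 1311 at time 0. Its difference was 0.75 ± 0.36, adjusted p = 0.16 with all arrays, -0.22 without replicate 1 and 1.41 without replicate 3. Cidea (2035, 673 and 455), Slc22a4 (901, 393 and 285) and Cpm (371, 175 and 145) were highest in replicate 1 as well. Without replicate 3 the called members numbered 5, with Fstl3, Cidea and Slc22a4 (1.03) added, where 68 of all 19938 genes were called. Without replicate 2 Cidea was added and 54 genes were called, and without replicate 1 the same 2 members and 310 genes were, against 77 with all arrays. With replicate 1 as the one 4h array, assumed to vary like the other groups, all 8 members were called, Cpm at 1.17 and Fstl3 at 2.68, and 610 genes in all, in a fit added after the data were seen.

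In Sertoli cell RNA labelled 4h, Esyt3 was the single member called, at 2558 and 1347 in Amh IP arrays, against 586 and 687 at time 0 (1.55 ± 0.37, adjusted p = 0.00198). In that comparison 0.622% of all genes were higher and 1.32% lower. The call was lost without the 4h replicate 1 (1.09, adjusted p = 0.138). Gadd45b read 1204 and 987 against 493 and 643 and passed the adjusted p without the fold (0.95 ± 0.21, adjusted p = 0.00106), which it reached without replicate 2 of either time (1.10 and 1.15). Nags read 1054 and 714 against 537 and 570 (0.65 ± 0.26, adjusted p = 0.0821, 95% interval 0.13 to 1.17) and Slc22a4 631 and 436 against 344 and 392 (0.51 ± 0.30, adjusted p = 0.262), both with no overlap and neither past the test. Fstl3, Cidea, Lzts1 and Cpm differed by -0.07, 0.06, 0.18 and -0.18, and the member median was 0.35 against 0.068 for all genes. These are the arrays in which none of the RA targets was called, and the part of that in the members' differences was not tested.

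The 4h change of Cpm was larger in Stra8 IP than in Stra8 total RNA by 1.66 ± 0.38 (adjusted p = 0.0061), the single call among the members, where 0.627% of all genes were higher and 0.206% lower. The call was lost without Stra8 IP 4h replicate 1 (1.57, adjusted p = 0.0574) and when the compared groups were fitted alone (adjusted p = 0.216). Without Stra8 total 4h replicate 1 the value for Cpm was 2.07, and Fstl3 (1.64) and Cidea (1.37) were called too. With replicate 1 as the one Stra8 total array at 4h, Cpm was not called (0.85, adjusted p = 0.118), while Slc22a4 (-1.09) and Lzts1 (-1.39) were, with a lower change in the IP, so the Cpm call rests on replicates 2 and 3. The 4h change was larger in Stra8 IP than in Amh IP RNA by 2.20 ± 0.43 for Cpm (adjusted p = 0.000387) and by 1.58 ± 0.50 for Cidea (adjusted p = 0.0322), 2 members where 1.87% of all genes were higher and 0.838% lower. The Cidea call was lost in 7 of 8 fits without an array, and the Cpm call in none of them. Against Amh IP, the 95% intervals of Esyt3, Nags, Gadd45b, Slc22a4 and Lzts1 included 0, and that of Fstl3 ran from 0.15 to 2.84 with adjusted p = 0.138. These comparisons share the Stra8 IP arrays of 4h and time 0, and the last one rests on the Amh arrays labelled 4h.

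Averaged over all times with equal weight, Fstl3, Esyt3, Cidea, Nags and Slc22a4 were lower and Cpm was higher in Stra8 IP than in Amh IP RNA, where 7.54% of all genes were higher and 9.26% lower. The member median was -1.72 against -0.023 for all genes. Cidea ranged from 128 to 518 units (median 257) in Stra8 IP and from 1197 to 4475 units (median 2215) in Amh IP arrays, with no overlap (-3.28 ± 0.12, adjusted p = 2.55e-29). Nags ranged from 239 to 458 units (median 306) in Stra8 IP and from 537 to 2663 units (median 1231) in Amh IP arrays and did not overlap either (-2.05 ± 0.09). Fstl3 (-2.21 ± 0.17), Esyt3 (-1.95 ± 0.13) and Slc22a4 (-1.48 ± 0.10) were the other lower calls, and their ranges overlapped. Slc22a4, the ergothioneine transporter, ranged from 191 to 352 units (median 257) in Stra8 IP and from 344 to 2093 units (median 623) in Amh IP arrays. Cpm ran the other way, from 155 to 2170 units (median 453) in Stra8 IP and from 110 to 525 units (median 138) in Amh IP arrays (1.49 ± 0.11, adjusted p = 7.92e-18). Gadd45b (-0.66 ± 0.08) and Lzts1 (-0.62 ± 0.10) passed the adjusted p without reaching 2-fold. With the Amh groups labelled 4h and 4d left out all 6 calls were made again, with Cidea at -3.49 and Cpm at 1.25.

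Against the total RNA of their own line, Stra8 IPs had less Fstl3 (-1.37 ± 0.16) and Cidea (-1.70 ± 0.12) and more Cpm (1.17 ± 0.10), where 3.84% of all genes were higher and 5.37% lower. Cpm ranged from 155 to 2170 units (median 453) in the IP and from 119 to 371 units (median 199) in total RNA. With the Stra8 total arrays labelled 4h left out, Cpm fell short of 2-fold (0.87) and Nags, at -1.00 with all arrays, was called (-1.09). Gadd45b showed no difference between the fractions past the test (0.03 ± 0.07, adjusted p = 0.76, 95% interval -0.12 to 0.17).

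In Ngn3 IP against Ngn3 total RNA the same 3 members were called in the same directions, Fstl3 at -1.56 ± 0.33, Cidea at -2.06 ± 0.25 and Cpm with a 95% interval of 1.32 to 2.18, where 6.18% of all genes were higher and 6.75% lower. This comparison holds the total arrays that chose the members, so it is not independent of that choice and stands as a description. Cidea read 361 and 355 at 4h and 163 and 152 at time 0 in Ngn3 IP, against 2079 and 2020 at 4h and 426 and 539 at time 0 in Ngn3 total RNA. Cpm read 669 and 750 in Ngn3 IP and 246 and 212 in Ngn3 total RNA at time 0.

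In Amh IP against Amh total RNA, Cidea (1.19 ± 0.13) and Nags (1.05 ± 0.10) were higher and Cpm was lower (-1.01 ± 0.12), where 1.10% of all genes were higher and 3.94% lower. Nags lay at the fold limit and was called no longer after quantile normalization (0.95) or without Amh total 6d replicate 1. Cpm ended short of 2-fold in 5 of 28 fits without an array (without 48h replicate 1, 6d replicate 1 or 8d replicate 1 of the IP or replicate 2 of total RNA at 6d or 8d, -0.99 to -0.92), after median centring, and with the Amh groups labelled 4h and 4d left out (-0.72). Amh total RNA labelled 4d held 1299 and 1143 units of Cpm, above all other Amh total arrays. The other 5 members were 0.43 to 0.88 higher in Amh IP, past the adjusted p and short of 2-fold.

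**Figure D3:**
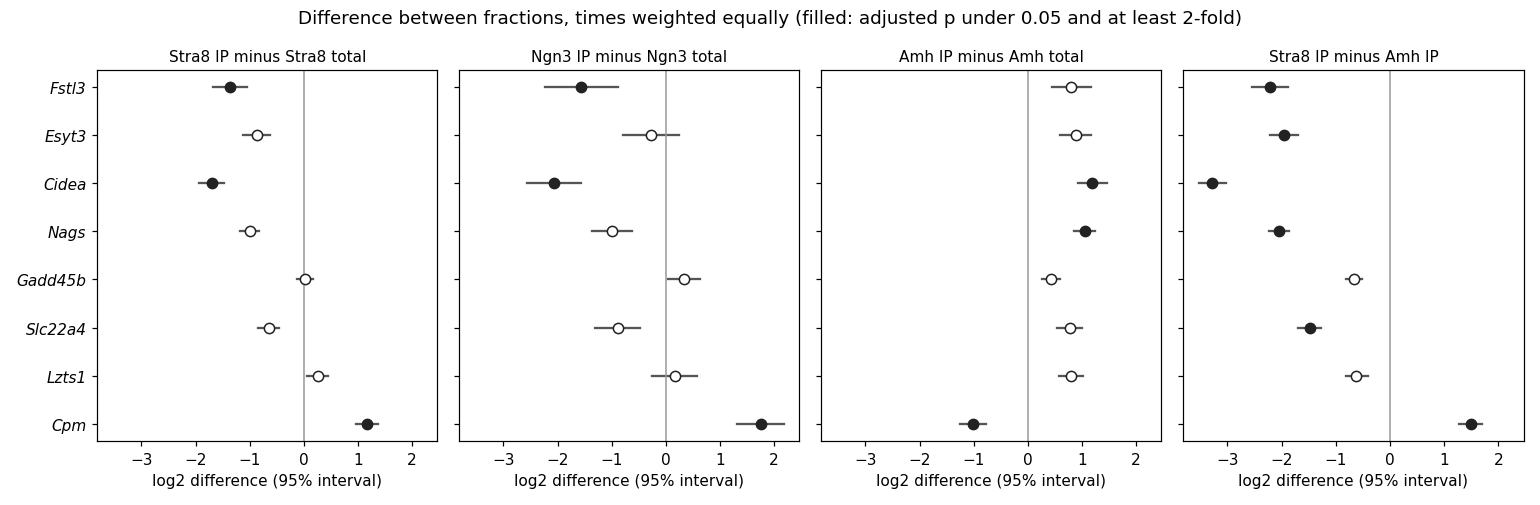
Log2 difference with its 95% interval for each member in Stra8 IP minus Stra8 total, Ngn3 IP minus Ngn3 total, Amh IP minus Amh total and Stra8 IP minus Amh IP RNA, over all times. Filled points were called, with Cpm at 1.49 in Stra8 IP minus Amh IP and the other 7 members below 0 there. The Ngn3 panel holds the total arrays that chose the members, so its filled points are a description only.

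Other cell types of the testis were looked at through marker lists. In Amh IP against Amh total RNA, 4 of 6 measured Leydig cell, 7 of 8 peritubular myoid, 5 of 8 macrophage and 4 of 8 endothelial markers were called lower, while Cidea and Nags were higher. Adipocyte markers, listed because Cidea is best known from brown fat, had 0 of 6 called in any of the 4 comparisons averaged over times (2 to 3 at an unadjusted limma p under 0.05), and their mean log2 intensity was 6.94 to 7.36 in Amh IP and 6.77 to 8.42 in Amh total arrays.

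At time 0 Lzts1 stood on the other side from its average over all times. It read 768 and 745 in Stra8 IP, against 306 and 355 in Amh IP RNA (1.20 ± 0.29, adjusted p = 0.000483). It was also higher in Stra8 IP than in Stra8 total RNA at time 0 (1.33 ± 0.25, adjusted p = 1.23e-05), where total RNA held 277 to 329. By 8d Lzts1 read 439 and 438 in Stra8 IP and 2394 and 3222 in Amh IP RNA, the order reversed. Comparisons at time 0 alone were added after the data were seen. Between Stra8 IP and Amh IP at time 0, Lzts1 and Cpm (1.96) were higher and Fstl3 (-1.38), Cidea (-2.98) and Nags (-1.17) lower, where 7.10% of all genes were higher and 9.42% lower. The Fstl3 call was lost without either Amh IP array or without Stra8 IP replicate 1 (-1.40 to -1.25). Esyt3 read 461 and 392 against 586 and 687 and did not pass the test (-0.58 ± 0.37, adjusted p = 0.22, 95% interval -1.32 to 0.16). Between Stra8 IP and total RNA at time 0, Lzts1 and Cpm (1.61) were higher and Cidea (-1.49) lower, where 6.11% of all genes were higher and 6.79% lower. Between Amh IP and total RNA at time 0, Cidea (1.02 ± 0.35, adjusted p = 0.0228) was higher and Cpm (-1.24 ± 0.30, adjusted p = 0.00132) lower, where 0.426% of all genes were higher and 3.41% lower, and the Cidea call was lost in all 4 fits without an array.

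After 4h all 8 members rose in Sertoli cell RNA at some time, Cpm at 8d alone. Each later time was compared with the same arrays at time 0, so RA and any age gained since then cannot be told apart here. In Amh IP RNA all 8 were called higher at 1 or more of the 6 later times, where 3.67% of all genes were higher and 3.88% lower, and in Amh total RNA all 8 were (all genes 4.48% and 3.21%). Cpm was called in Amh total RNA at the label 4d alone (1.98), in the arrays whose Rarb was high, and lay between -0.46 and 0.17 at the other 5 times. With the Amh groups labelled 4h and 4d left out, 7 members were called in Amh total RNA and all 8 in Amh IP RNA. In Stra8 total RNA 7 were higher, all but Cpm (all genes 4.90% and 1.98%). In Stra8 IP RNA Esyt3 and Gadd45b were higher and Cpm was lower (all genes 6.61% and 4.06%).

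Esyt3 rose at all 6 later times in Amh IP RNA. It read 586 and 687 at time 0, 6138 and 5244 at 12h, 2845 and 1947 at 24h, 3259 and 3405 at 48h, 4098 and 4140 at 4d, 4189 and 7090 at 6d and 7507 and 8265 at 8d. Every later array lay above both arrays at time 0, and the 8d difference was 3.63 ± 0.37 (12.4-fold, adjusted p = 2.2e-11). It was called at all 6 times in Stra8 total and Amh total RNA as well. The Stra8 total call at 4d, with 508 and 1641, was lost without replicate 2 of that time (0.38).

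At 12h, 6 members were higher in Amh IP RNA, where 0.868% of all genes were higher and 0.682% lower. Fstl3, the activin binder, read 7069 and 6266 at 12h, against 1302 and 1349 at time 0 (2.33 ± 0.47, adjusted p = 0.000353). Cidea read 3769 and 3513, against 1197 and 1380 (1.50 ± 0.35, adjusted p = 0.00196). Gadd45b read 2143 and 2048, against 493 and 643 (1.90 ± 0.21, adjusted p = 3.02e-09). None of these 3 overlapped between the times, which was not counted over all genes. Esyt3, Lzts1 (1.26) and Nags (1.09, not called without 12h replicate 1) completed the 6. In Amh total RNA at 12h Fstl3, Esyt3, Cidea and Gadd45b were called, where 0.376% of all genes were higher and 0.512% lower, and Cidea lost its call without any 1 of the arrays of 12h or time 0 (1.30 to 1.41).

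At 24h and 48h fewer members were past the test in Amh IP RNA. Esyt3 and Nags were called at both times. At 24h 0.0853% of all genes were higher and 0.451% lower, and at 48h 0.221% of all genes were higher and 1.00% lower. Nags read 1240 and 1026 at 24h and 1134 and 1222 at 48h, against 537 and 570 at time 0, and its 24h call was lost without any 1 of the arrays of 24h or time 0 (0.89 to 1.16). Nags also lost its 48h call without 48h replicate 2 (1.03), and Esyt3 its 24h call without 24h replicate 1 (1.62). Fstl3 read 3059 and 2072 at 24h and 2586 and 2991 at 48h, below its 12h arrays, and did not pass the test against time 0 (1.07 ± 0.47, adjusted p = 0.171 at 48h). In Amh total RNA Esyt3 and Gadd45b were called at 24h and 48h, though both 24h calls were lost without 24h replicate 1 (1.60 for Esyt3, 0.95 for Gadd45b) or time 0 replicate 1, and that of Gadd45b also without 24h replicate 2. There 0.100% of all genes were higher and 0.0451% lower at 24h, and 0.306% of all genes were higher and 0.286% lower at 48h.

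At the label 4d, 7 members were higher in Amh IP RNA, all but Cpm, where 0.487% of all genes were higher and 0.456% lower, and all 8 in Amh total RNA, where 0.396% of all genes were higher and 0.155% lower. Lzts1 read 2299 and 2326 in the IP at 4d, against 306 and 355 at time 0 (2.81 ± 0.29, adjusted p = 1.33e-09). Slc22a4 read 1714 and 1755, against 344 and 392 (2.24 ± 0.30, adjusted p = 3.85e-07). Both genes had 4d arrays far above those of time 0. Cpm read 1299 and 1143 in total RNA at 4d, against 322 and 294 at time 0 (1.98 ± 0.30, adjusted p = 1.26e-05). In IP RNA Cpm read 184 and 175, against 124 and 136 (0.47 ± 0.30, adjusted p = 0.351). These are the arrays with the high Rarb given above.

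At 6d, 7 members were higher in Amh IP RNA, again all but Cpm, where 1.26% of all genes were higher and 2.14% lower, and at 8d all 8, where 2.93% of all genes were higher and 2.69% lower. Lzts1 rested on 1 array at 6d, with 512 and 1794 (1.54, and 0.63 without replicate 2). At 8d Lzts1 read 2394 and 3222, against 306 and 355 at time 0 (3.07 ± 0.29, adjusted p = 3.48e-12). Cidea lost its 6d call without 6d replicate 2 (0.79) or either array of time 0, and its 8d call without 8d replicate 2 (1.07) or time 0 replicate 1. Cpm at 8d, with 243 and 525, was not called without replicate 2 (0.90). In Amh total RNA, 5 members were called at 6d, where 1.26% of all genes were higher and 1.80% lower, and 5 at 8d, where 3.46% of all genes were higher and 2.34% lower. Slc22a4 read 412 and 1041 in total RNA at 6d and was not called without replicate 2 (0.53) or time 0 replicate 1. Fstl3 was not called there without 6d replicate 2 (1.08) or without either array of time 0.

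In Stra8 total RNA, 4 members were higher at 12h, where 0.286% of all genes were higher and 0.176% lower, and 2 at 24h, where 0.176% of all genes were higher and 0.125% lower. Esyt3 alone was higher at 48h, where 0.191% of all genes were higher and 0.0552% lower, and at 4d, where 0.632% of all genes were higher and 0.356% lower. At 6d 7 were higher, where 2.76% of all genes were higher and 1.14% lower, and at 8d 5, where 3.38% of all genes were higher and 1.48% lower. Slc22a4 was called at 6d alone, with 1389 and 1237, against 254 to 322 at time 0 (2.17 ± 0.26, adjusted p = 3.05e-09), and read 429 and 367 at 8d. Fstl3 read 5240 and 4555 at 6d, against 902 to 1311 (2.28 ± 0.41, adjusted p = 1.52e-05). Its 12h call (1.61 ± 0.41) was lost without either replicate of that time, its 8d call without 8d replicate 1 (1.27), and the 12h call of Cidea without 12h replicate 2 (1.30). At 24h, Nags and Gadd45b were called as well without replicate 3 (1.00 and 1.13).

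In the germ cell RNA of the Stra8 line, 3 members were called after 4h. At 12h limma called none, with 4 members at an unadjusted p under 0.05, where 0.140% of all genes were higher and 0.336% lower. Gadd45b passed the adjusted p and fell just short of 2-fold there, with 905 and 837 (0.98 ± 0.21, adjusted p = 0.00208), and at 4d, with 934 and 786 (0.96 ± 0.21, adjusted p = 0.000549). Gadd45b was called at 24h, 48h, 6d and 8d, reading 1086 and 1145 at 48h against 536 and 361 at time 0 (1.34 ± 0.21, adjusted p = 1.2e-05), and its 24h and 8d calls were lost without replicate 2 of time 0. Esyt3 was called at 24h, 6d and 8d, reading 1146 and 1086 at 8d against 461 and 392 (1.39 ± 0.37, adjusted p = 0.00193). Its 24h arrays read 738 and 1595, and the call was lost without replicate 2 of time 0 or of 24h (0.80). The 24h replicate 2 had a Sertoli marker mean of 10.49, against 9.51 in replicate 1. The part of that in the call was not tested.

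Cpm, the germ cell side member, read 468 and 508 in Stra8 IP at 12h, close to the 525 and 484 of time 0 (-0.05 ± 0.30, 95% interval -0.66 to 0.56). It was lower at 4d (-1.29 ± 0.30, adjusted p = 0.00113) and at 8d, with 205 and 173 (-1.42 ± 0.30, adjusted p = 0.000157). The 4d call was lost without replicate 1 of that time (-0.88). In Stra8 IP RNA 0.211% of all genes were higher and 0.231% lower at 24h, 0.341% of all genes were higher and 0.547% lower at 48h, and 0.848% of all genes were higher and 1.10% lower at 4d. At 6d 3.71% of all genes were higher and 2.27% lower, and at 8d 4.38% of all genes were higher and 3.01% lower.

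**Figure D4:**
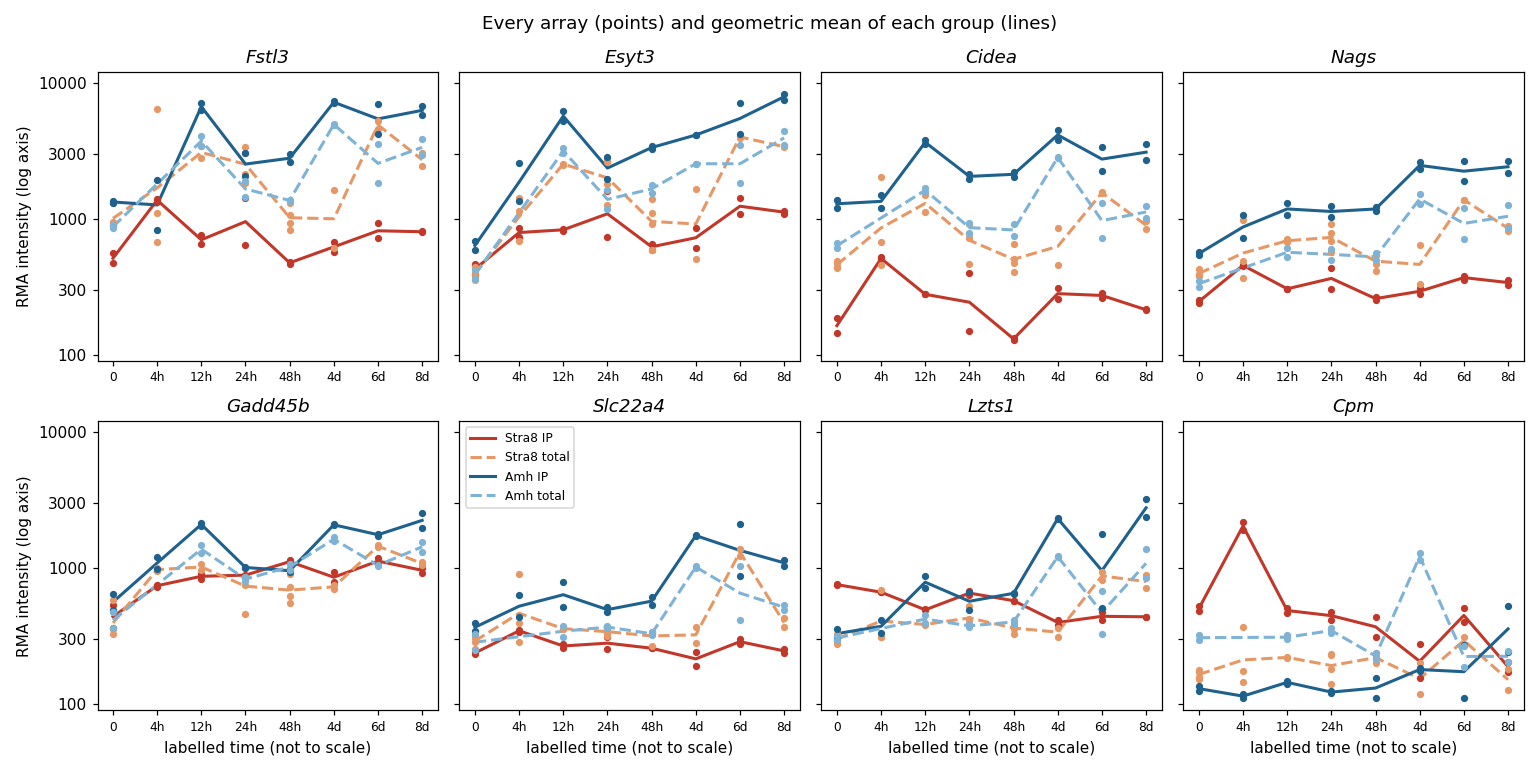
RMA intensity (log axis) of the 8 members against labelled time after RA (spacing not to scale), 1 point per array, with lines through the geometric mean of each group in Stra8 IP, Stra8 total, Amh IP and Amh total RNA (no Amh total arrays at 4h). Cpm is highest in Stra8 IP at 4h, with 2170 and 1913 units, and Esyt3 is highest in Amh IP at 8d, with 7507 and 8265.

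Whether the later changes differed between Stra8 IP and Amh IP RNA was tested at 12h, 24h, 48h, 6d and 8d, comparisons added after the data were seen that share the arrays at time 0. At 12h Esyt3 (-2.20 ± 0.52, adjusted p = 0.00343) and Lzts1 (-1.87 ± 0.41, adjusted p = 0.0016) had a lower change in Stra8 IP, where 1.07% of all genes were higher and 1.07% lower. At 24h limma called no member, with 1 at an unadjusted p under 0.05, where 0.672% of all genes were higher and 0.221% lower. At 48h Esyt3 (-1.85) and Lzts1 (-1.38) were called, where 1.22% of all genes were higher and 0.797% lower, but Esyt3 lost that call in 5 and Lzts1 in 7 of 8 fits without an array. At 6d Esyt3, Nags, Slc22a4 and Lzts1 had a lower change in Stra8 IP, where 6.07% of all genes were higher and 3.13% lower. Esyt3 lost its 6d call in 4 of 8 such fits and Slc22a4, at -1.60, without Amh IP 6d replicate 2 (-0.97). At 8d Esyt3 (-2.24 ± 0.52), Nags (-1.65 ± 0.36), Slc22a4 (-1.53 ± 0.42), Lzts1 (-3.86 ± 0.41) and Cpm (-2.88 ± 0.43) did, Lzts1 and Cpm with levels in Stra8 IP below those of time 0, where 5.55% of all genes were higher and 5.55% lower. Cpm was 4.15 log2 units higher in Stra8 IP than in Amh IP arrays at the label 4h, and its difference was -0.92 at 8d.

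Close relatives of the members were not called in Ngn3 total RNA at 4h, where 0.251% of all genes were higher and 0.0502% lower. The largest shares of all genes at 4h were 0.622% higher and 1.32% lower, both in Amh IP RNA. At such shares, lists as short as those below would hold few or no calls. Their counts therefore do not set the members apart from their families. None of the 11 activin and follistatin genes was (1 at an unadjusted limma p under 0.05), and Fst, the better known activin binder, differed by -0.09 ± 0.13. Gadd45a differed by 0.98 ± 0.15 (adjusted p = 2.25e-05), just short of 2-fold, and Gadd45g by 0.10 ± 0.21. Cidec and Cideb, lipid droplet proteins of the same family as Cidea, differed by 0.19 and 0.14, Esyt1 and Esyt2 by -0.06 each, and Slc22a5, the carnitine transporter closest to Slc22a4, by 0.08. Of the 6 measured urea cycle and arginine genes none was called at 4h in the 5 line and fraction groups (1 to 3 at an unadjusted limma p under 0.05), and Cps1, which the product of Nags activates, differed by 0.08 ± 0.14 in Ngn3 total RNA. None of the 6 metallocarboxypeptidases was called at 4h in those groups either (0 to 3 at an unadjusted p), with Cpd at -0.01 and Cpe at -0.02 in Ngn3 total RNA. Of 15 immediate early genes 0 were called higher at 4h in those groups (1 to 3 at an unadjusted p in either direction), and Egr2 fell in Stra8 total RNA (-1.22 ± 0.13).

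In Stra8 IP against Amh IP RNA some relatives stood with the member and others opposite to it. Inhbb (-2.66 ± 0.07) and Inha (-2.10 ± 0.07), subunits of activin and inhibin, and Smad3 (-1.39 ± 0.05), which carries the activin signal, were lower in Stra8 IP, as Fstl3 was. Cpxm1 (2.16 ± 0.06), Cpn1 (1.90 ± 0.07) and Aebp1 (1.12 ± 0.05) were higher, as Cpm was, and Cpe (-3.24 ± 0.07) and Cpd (-1.39 ± 0.05) were lower. Arg2, a mitochondrial arginase, was higher in Stra8 IP (2.10 ± 0.07), opposite to Nags. Gadd45a was called lower (-1.04 ± 0.05) where Gadd45b, at -0.66, missed the fold.

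Over the 35 group means, the genes most like each member were named by Pearson's r, as a description of groups that share lines, fractions and arrays. Osbpl5, a relative of oxysterol-binding protein, came first for Fstl3 (r = 0.943), Cidea (r = 0.969) and Nags (r = 0.958). Nags and Slc22a4 were among each other's 3 nearest genes (r = 0.941), and Fstl3 had Nags (r = 0.938) and Cidea (r = 0.927) among its own. Esyt3 was nearest to Phactr1 (r = 0.949), Gadd45b to Coro2a (r = 0.876), Lzts1 to Cfap161 (r = 0.851) and Cpm to Hivep2 (r = 0.92). The highest group mean of Fstl3, Cidea, Nags and Slc22a4 was that of Amh IP labelled 4d, of Esyt3, Gadd45b and Lzts1 that of Amh IP at 8d, and of Cpm that of Ngn3 IP at 4h. The 50 genes called higher in Ngn3 total RNA at 4h come from the contrast that chose the members and include all 8 of them. Of the 50, 21 were called higher in Amh IP and 2 in Stra8 IP RNA, against 1846 and 1503 of all 19938 genes. Members made up 5 of the 21 and 1 of the 2. These counts are a description and were not tested.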

How the data were processed

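Values of 77 Affymetrix arrays were compared. The authors deposited RMA intensity, per the submitters' processing notes, with no version or settings named in the sources used here, and the values lie on a linear scale. Of 28853 probe sets, 1621 with several genes and 5443 with none listed were left out, and the probe set with the highest mean stood for a gene, leaving 19938 genes, analysed as log2. Array medians were 252.6 to 300.5. Few arrays limit the precision: 31 of 35 groups held 2.

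One limma 3.58.1 model (R 4.3.3) gave each group a mean, with variances moderated along intensity, and 43 comparisons were drawn from it. Since no label ties replicates to separate animals, p-values may reflect technical spread. Deviations of same-numbered IP and total arrays correlated above 0.1 in 7 of 7 Amh, 4 of 8 Stra8 and 2 of 2 Ngn3 pairs. Numbers thus pair the Amh fractions, where the replicate block changed no member's call. By the same measure they pair the Ngn3 fractions, on 2 pairs only (r = 0.249 and 0.259). Members and gene lists were chosen with earlier results of these data known. Named were all members, up to 4 called genes per list, close relatives, the genes most like each member, the neighbours of the smallest member and the largest other risers. Alternatives were median centring, quantile normalization, mean of probe sets, low genes left out, no fold minimum, the compared groups fitted alone, the block and single arrays left out. Fits without doubted arrays, and comparisons at time 0 or between lines at later times, were added after seeing the data. The code was tested on simulated data.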

Additional observations from a re-analysis of the deposited data

Results flagged for a closer look

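Among 24 combinations of a member and a group of 4 arrays, 2 held an array whose gap to the nearest other took most of the group's range, where chance gives about 1 in 20. Fstl3 in Stra8 total RNA at time 0 read 948, 902, 1311 and 905, with replicate 3 highest (gap 0.867 of the range on the log2 scale). Gadd45b in that group read 578, 330, 360 and 355, with replicate 1 highest (gap 0.845 of the range on the log2 scale).

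Changes from time 0 that differed by the test of the difference itself were those of Cpm and Cidea at 4h. The Cpm change was larger in Stra8 IP than in Stra8 total RNA by 1.66 (0.85 and not called with replicate 1 as the one Stra8 total array at 4h) and larger than in Amh IP RNA by 2.20, and the Cidea change was larger than in Amh IP RNA by 1.58. At 12h Esyt3 (-2.20) and Lzts1 (-1.87) had a lower change in Stra8 IP than in Amh IP RNA. At 48h the differences were -1.85 for Esyt3 and -1.38 for Lzts1. At 6d they were -1.57 for Esyt3, -1.43 for Nags, -1.60 for Slc22a4 and -2.31 for Lzts1. At 8d they were -2.24 for Esyt3, -1.65 for Nags, -1.53 for Slc22a4, -3.86 for Lzts1 and -2.88 for Cpm. The Cidea call at 4h and both 48h calls were lost in most fits that left out an array, as given above. The 6d calls of Esyt3 and Slc22a4 were lost in some. Differences from Amh IP at 4h rest on the Amh IP arrays labelled 4h, in which no RA target was called.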

How the results depend on the processing

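No called difference of a member changed sign under any alternative run. Counts over all 19938 genes stand in parentheses after the count of members. With no 2-fold minimum the members called numbered 2 in Ngn3 IP (410) and 2 in Amh IP at 4h (3047), 4 in Stra8 total at 4h (3314), 7 (14219), 5 (11097) and 8 (14782) for IP against total RNA in Stra8, Ngn3 and Amh, and 5 for Stra8 IP against total RNA at time 0 (10140). With the compared groups fitted alone they numbered 3 in Ngn3 IP at 4h (66), where Fstl3 and Cidea joined Cpm, 0 for the Stra8 IP minus total change at 4h (12) and 5 for the Stra8 IP minus Amh IP change at 48h (435). The Stra8 IP minus total change at 4h had 3 without the 3 arrays of narrow spread (507) and 2 with replicate 1 as the one Stra8 total array at 4h (724), where Stra8 total at 4h had 8 (610). With quantile normalization the 48h difference between lines had 1 (373). The cause of these moves was not tested. Leaving out 1 array at a time gave 2 to 5 members in Stra8 total at 4h (54 to 310), 0 to 3 for the Stra8 IP minus total change (59 to 503), 1 to 2 in Stra8 IP at 4h (37 to 63), 1 to 2 for its change minus that of Amh IP (451 to 612) and 0 to 2 in Amh IP at 4h (353 to 394). Between lines it gave 0 to 2 at 48h (348 to 491) and 2 to 5 at 6d (1774 to 1977), and for Amh IP against total RNA at time 0 it gave 1 each time (736 to 802), where 2 were called with all arrays. With the replicate block Nags was also called in Stra8 IP against total RNA, at -1.01, and replicate numbers are not shown to pair the Stra8 arrays.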
